A study of Mus musculus with 13 samples.

Results

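The mRNAs of the tuberous sclerosis complex (TSC), of its target Rheb and of AMP-activated protein kinase (AMPK) were followed in 13 mouse kidney libraries. The members were chosen by name as subunits of these complexes. They are Tsc1, Tsc2 and Tbc1d7 of the TSC, Rheb itself, and Prkaa1, Prkaa2, Prkab1, Prkab2, Prkag1 and Prkag2 of AMPK. These 10 genes are part of the 35013 gene symbols of the deposited table, and all 10 passed the filter on low counts that left 16468 genes for testing. The libraries were labelled Spns1 KO (n = 4), WT (n = 5) and FeO (n = 4). Spns1 KO mice had 2 floxed Spns1 alleles (flox/flox), the Megalin3'Cre-Ert driver and a Uprt flox/+ genotype, and had received no iron. According to the methods, the WT and FeO mice carried 1 floxed Spns1 allele with the same Cre and Uprt alleles, although the sample labels give their genotype as Spns1 WT. FeO mice had been given iron sucrose at 12 mg a day for 3 days, a weight that the labels state for the compound and the methods for elemental iron, and were killed 1 week later. All mice were female, and their age is not given in the sources used here. All mouse pairs were given tamoxifen in parallel, as the methods state. In every group the megalin promoter drove an inducible Cre, which acts in the proximal tubule. This Cre also switched on UPRT, an enzyme that lets cells build 4-thiouracil into new RNA, and the tagged RNA was captured on beads before sequencing. A level below is therefore an amount of captured RNA, and fewer cells of a type and less RNA per cell cannot be told apart.

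The TSC and AMPK meet at the lysosome, where the kinase mTORC1 decides between growth and recycling. Tsc2 carries the domain that switches the small GTPase Rheb off, Tsc1 holds Tsc2 in a stable complex, and Tbc1d7 is the remaining subunit. Rheb loaded with GTP activates mTORC1. AMPK is built from a catalytic alpha, a scaffolding beta and a nucleotide-sensing gamma subunit, and when energy is low it phosphorylates Tsc2 and the mTORC1 subunit Raptor, which lowers mTORC1 activity. Spns1, the gene deleted in the Spns1 KO mice, encodes a transporter of the endosomal and lysosomal membrane.

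Among the members, Rheb and Tbc1d7 were the ones whose upstream sequence held the E-box CACGTG, a binding motif of the TFE and MYC families. Both were called higher in FeO than in WT, Tbc1d7 not with the length and GC offset described below, and Prkag1, the other member called higher, held no E-box in its window. The 250 bases before the RefSeq start (GRCm38.p6) were searched on both strands, where this motif reads the same. It occurred in 6.02% of the 32851 mouse promoter windows searched and in 2 of the 12 windows of the members. The E-box lay 96 bases before the start of Rheb (window chr5:24842362-24842611, minus strand) and 53 bases before that of Tbc1d7 (chr13:43171502-43171751, minus strand). The window of Tsc1, the member that fell most, is shown beside them (chr2:28640983-28641232, plus strand) and held neither this motif nor the GC box GGGCGG, the CCAAT box CCAAT or the cyclic AMP response element TGACGTCA. The windows of Tsc2 and Prkab1, neither of them called in FeO, also held none of these motifs. The GC box was found in 32.7% of all windows, the CCAAT box in 33.8% and the cyclic AMP element in 1.55%. Among the 12 windows of the members, 7 held a GC box, that of Rheb included. A CCAAT box lay in windows of Prkag1 and Prkag2. A match is a description of letters, and binding was not measured. Capitals mark the E-box.
Rheb: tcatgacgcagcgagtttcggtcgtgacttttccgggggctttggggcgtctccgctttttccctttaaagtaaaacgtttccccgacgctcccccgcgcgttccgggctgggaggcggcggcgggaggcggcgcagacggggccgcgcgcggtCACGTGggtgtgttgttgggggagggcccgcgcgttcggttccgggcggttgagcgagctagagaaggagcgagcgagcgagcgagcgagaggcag
Tbc1d7: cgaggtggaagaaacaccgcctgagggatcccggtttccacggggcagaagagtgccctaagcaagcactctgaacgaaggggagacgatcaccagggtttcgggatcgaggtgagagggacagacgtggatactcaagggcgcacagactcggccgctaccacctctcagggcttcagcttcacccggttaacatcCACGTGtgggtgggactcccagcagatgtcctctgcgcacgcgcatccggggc
Tsc1: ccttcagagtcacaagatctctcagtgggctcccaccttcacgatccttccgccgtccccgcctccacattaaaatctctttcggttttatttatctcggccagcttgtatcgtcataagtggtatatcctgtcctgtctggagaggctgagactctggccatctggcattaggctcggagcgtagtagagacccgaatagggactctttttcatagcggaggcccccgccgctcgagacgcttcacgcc

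Total counts were 31809135 to 71296474 in Spns1 KO, 23068023 to 37362311 in WT and 25986133 to 29981814 in FeO. Spns1 itself did not separate the groups, with 39.0, 44.5, 36.6 and 59.0 CPM (counts scaled to each library's total) in Spns1 KO against 39.2 to 62.9 CPM in WT (log2 fold change -0.31, SE 0.18, edgeR adjusted p = 0.225). A deposited count covers every exon of a gene, whereas the floxed allele loses a single exon. Whether this takes part in the overlap of the groups was not tested. The study reported that Spns1 RNA and protein were lost in knockout proximal tubules. The labels name the proximal tubule, and its 10 markers summed to 3663 to 5100 CPM in WT, 7019 to 8012 CPM in Spns1 KO and 2132 to 5057 CPM in FeO. Markers of other kidney cells were present too, with no marker at 0 in any group, and 11 of 38 were called higher and 2 lower in Spns1 KO, and 15 higher and 2 lower in FeO. Over all genes 14.0% were called higher and 7.55% lower in Spns1 KO, and 22.4% and 19.7% in FeO. Of the 10 proximal tubule markers, 7 were called higher in Spns1 KO, and 2 higher and 1 lower in FeO. The 5 podocyte markers summed to 164 to 293 CPM in WT, 234 to 297 CPM in Spns1 KO and 282 to 651 CPM in FeO, and the 7 collecting duct markers to 304 to 552, 281 to 419 and 483 to 1153 CPM. In WT, Spns1 KO and FeO, the 3 loop of Henle markers summed to 1116 to 2442, 2002 to 2712 and 1291 to 3386 CPM. The 3 distal convoluted tubule markers summed to 409 to 1774, 1065 to 2133 and 523 to 1878 CPM. The 5 macrophage markers summed to 45.5 to 54.4, 62.1 to 74.4 and 71.3 to 92.9 CPM. The 5 fibroblast markers summed to 60.9 to 97.9, 118 to 163 and 52.7 to 126 CPM, and the 5 endothelial markers to 194 to 250, 219 to 257 and 178 to 319 CPM. The part of these cells in the results on the members was not tested. Long and short genes moved apart between libraries. A length index, the median deviation in log2 CPM from the WT mean of the longest of 4 equal length classes of genes minus that of the shortest, was -0.31 to 0.40 in WT, -0.96 to -0.35 in Spns1 KO and -1.23 to -0.86 in FeO. In FeO against WT the shortest class of genes (up to 1919 bases) had a median log2 fold change of 0.60 and the longest (over 4587 bases) of -0.49, and in Spns1 KO against WT these medians were 0.37 and -0.33. Whether these shifts take part in the results on single members was tested only by taking out of each library a spline fit of transcript length and GC content, called the length and GC offset below. Library Spns1 KO 4 stood nearest to WT on this index (-0.35, against -0.70 to -0.96 in the other Spns1 KO libraries).

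A gene was called when its adjusted p in the quasi-likelihood test of edgeR (Benjamini-Hochberg over 16468 genes) was under 0.05 and the log2 fold change, in either direction, exceeded 0.5. In FeO against WT, 3 members were called higher (Tbc1d7, Rheb and Prkag1) and 2 lower (Tsc1 and Prkab2). Over all genes, 22.4% were called higher and 19.7% lower in this comparison. In Spns1 KO against WT no member was called higher and 2 were called lower (Tsc1 and Prkaa1), where 14.0% and 7.55% of all genes were called. The median member changed by -0.093 on the log2 scale in FeO and by 0.061 in Spns1 KO, beside -0.011 and -0.045 over all genes. Counts of members so close to the background say nothing particular about the group as a whole, and the results lie with single genes. Both comparisons share the WT libraries.

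**Figure D1:**
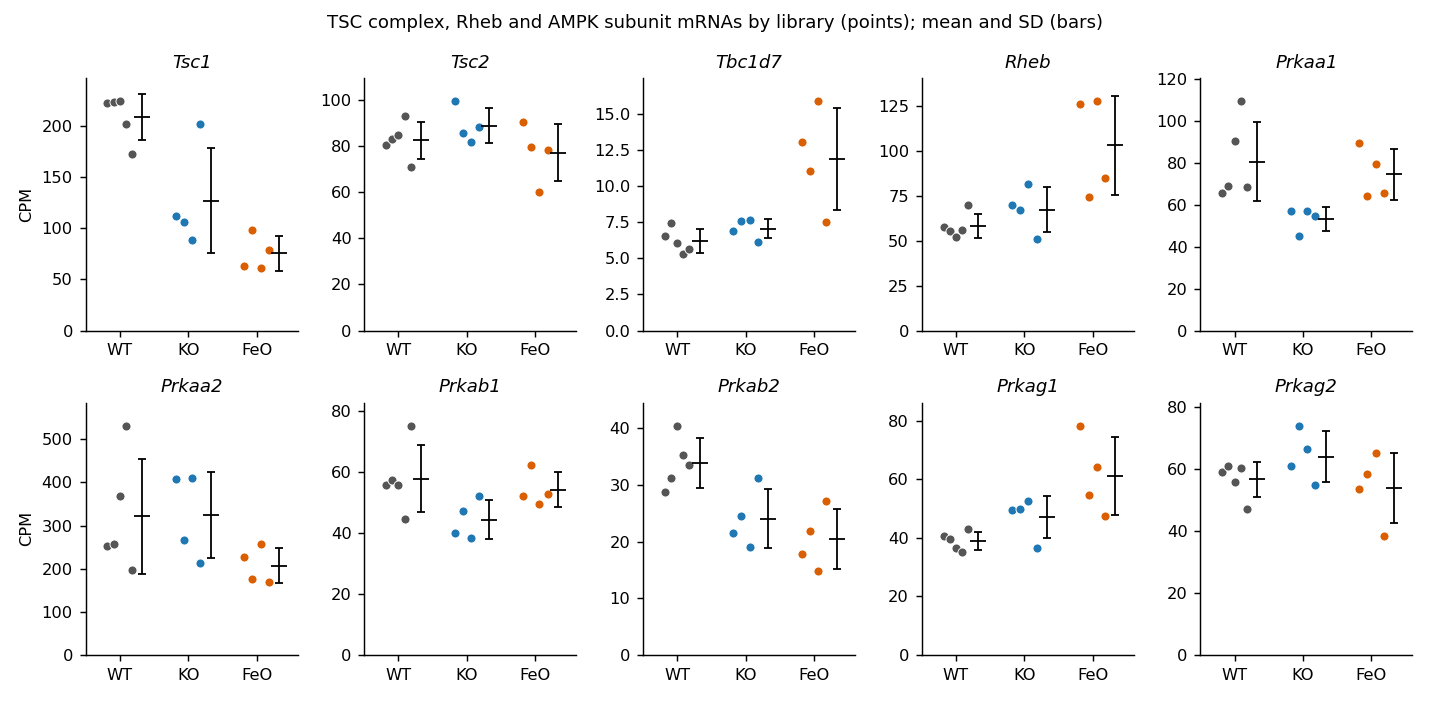
Level of each member in CPM (vertical axes, from 0) in every WT, Spns1 KO (KO) and FeO library, with points for libraries and bars for mean and SD. Tsc1 lay at 172 CPM or above in WT and at 98.1 CPM or below in FeO, while Rheb, Tbc1d7 and Prkag1 in FeO lay above every WT library.

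Tsc1, the scaffold of the TSC (chr2:28641228-28691167, GRCm38, plus strand), had the largest change among the members in FeO. Its level was 222, 224, 224, 202 and 172 CPM in WT 1 to 5. In FeO 1 to 4 it was 63.3, 98.1, 61.5 and 79.0 CPM, so every FeO library lay far below every WT library.
The log2 fold change was -1.47 (SE 0.23, edgeR adjusted p = 0.000495). Tsc1 stayed called lower in FeO in all 13 fits that left out 1 library and in the 11 other alternatives, and the length and GC offset reduced the change to -0.98 (edgeR adjusted p = 0.00256, with 1.72e-08 to 0.00994 over all alternatives). Ranges over all alternatives, here and below, hold the adjusted p of each alternative's own test, DESeq2 and limma-voom among them.

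In Spns1 KO the level of Tsc1 was 112, 106, 88.4 and 202 CPM. Libraries 1 to 3 lay below every WT library, whereas Spns1 KO 4 lay within the WT range. Tsc1 fell by 0.72 on the log2 scale against WT (SE 0.23, edgeR adjusted p = 0.0323). The call was lost without Spns1 KO 1, 2 or 3 or without WT 1, 2, 3 or 4 (-0.71 to -0.58, edgeR adjusted p = 0.0558 to 0.116), and without Spns1 KO 4 the value was -1.03. With the length and GC offset it was -0.47 (edgeR adjusted p = 0.0882, with 0.000814 to 0.344 over all alternatives), and with all genes that had a count above 0 it was -0.66 (edgeR adjusted p = 0.0509).

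Tsc2, the subunit that acts on Rheb (chr17:24595816-24632630, minus strand), stayed near its WT level where Tsc1 did not. Its level was 80.2, 83.1, 84.7, 92.8 and 70.9 CPM in WT, 99.3, 85.4, 81.7 and 88.2 CPM in Spns1 KO and 90.3, 79.6, 60.2 and 78.3 CPM in FeO. The groups overlapped, and the log2 fold change was 0.11 in Spns1 KO (SE 0.14, edgeR adjusted p = 0.602) and -0.095 in FeO (SE 0.14, edgeR adjusted p = 0.597). Its sign in FeO depended on the fit, with 0.28 under the length and GC offset (edgeR adjusted p = 0.0505). The gene ends against Pkd1 on the other strand and shares 693 exonic bases with it, and since the strand setting of the counting is not given in the sources used here, reads of the overlap may belong to either gene.

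The count ratio of Tsc1 to Tsc2 within a library, which needs no scaling between libraries, was 2.54 ± 0.24 for the 5 WT libraries, 1.44 ± 0.57 for the 4 Spns1 KO libraries and 0.99 ± 0.22 for the 4 FeO libraries (mean ± SD). The FeO range of 0.70 to 1.23 lay below the WT range of 2.18 to 2.77. Spns1 KO 4, at 2.29, was the only Spns1 KO library inside the WT range. As a description per length, Tsc1 made up 59.9% ± 1.62 of the summed CPM per kilobase of the TSC subunits for the 5 WT libraries, 44.3% ± 9.28 for the 4 Spns1 KO libraries and 30.98% ± 6.30 for the 4 FeO libraries (mean ± SD).

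Tbc1d7 (chr13:43151740-43171501, minus strand) rose in FeO and was not called in Spns1 KO. It was the scarcest member, at 6.56, 7.43, 6.05, 5.30 and 5.64 CPM in WT, and counts averaged 194 per WT library. In FeO it reached 13.05, 11.1, 15.9 and 7.50 CPM, above every WT library, with FeO 4 close to the highest WT value. Its log2 fold change in FeO was 0.94 (SE 0.20, edgeR adjusted p = 0.00213). The call held in all 13 fits that left out 1 library, and with the length and GC offset the value was 0.41 and no longer passed (edgeR adjusted p = 0.0852, with 9.58e-05 to 0.220 over all alternatives). In Spns1 KO it was at 6.89, 7.55, 7.61 and 6.16 CPM, overlapping WT (log2 fold change 0.19, SE 0.20, edgeR adjusted p = 0.525).

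Rheb, the GTPase that the TSC restrains (chr5:24802823-24842624, minus strand), rose in FeO. Its level was 57.6, 55.2, 52.0, 56.2 and 69.7 CPM in WT and 126, 74.2, 128 and 84.8 CPM in FeO. FeO 1 and FeO 3 were the highest, and FeO 2 lay just above WT 5. The log2 fold change was 0.83 (SE 0.18, edgeR adjusted p = 0.00264), and it stayed past the limits in all 13 fits that left out 1 library. With the length and GC offset it was 0.52 (edgeR adjusted p = 0.0152, with 0.000286 to 0.0629 over all alternatives) and still called, so that Tsc1 and Rheb were the members called in FeO with and without the offset. In Spns1 KO Rheb was at 69.9, 67.1, 81.3 and 51.1 CPM, overlapping WT, with a log2 fold change of 0.21 (SE 0.18, edgeR adjusted p = 0.419).

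Set against each other within a library, Tsc1 had 3.66 ± 0.71 counts for each count of Rheb for the 5 WT libraries, 2.06 ± 1.29 for the 4 Spns1 KO libraries and 0.81 ± 0.40 for the 4 FeO libraries (mean ± SD). WT ranged from 2.47 to 4.31 and FeO from 0.48 to 1.32. The Spns1 KO range of 1.09 to 3.96 spanned the gap between them, with library 4 alone in the WT range. Tsc1, at 7702 bases, belongs to the longest class of genes and Rheb, at 1784 bases, to the shortest, and the 7 libraries with a length index of -0.70 or lower had ratios of 1.60 or lower, while the other 6 had 2.47 or higher. By length class, the called increases in FeO, Tbc1d7, Rheb and Prkag1, were the 3 members in the shortest class, and the called decreases, Tsc1 and Prkab2, were among the 5 in the longest class, which also holds Tsc2, Prkaa1 and Prkaa2, none of them called in FeO. How far transcript length takes part in these changes was not tested beyond the offset.

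**Figure D2:**
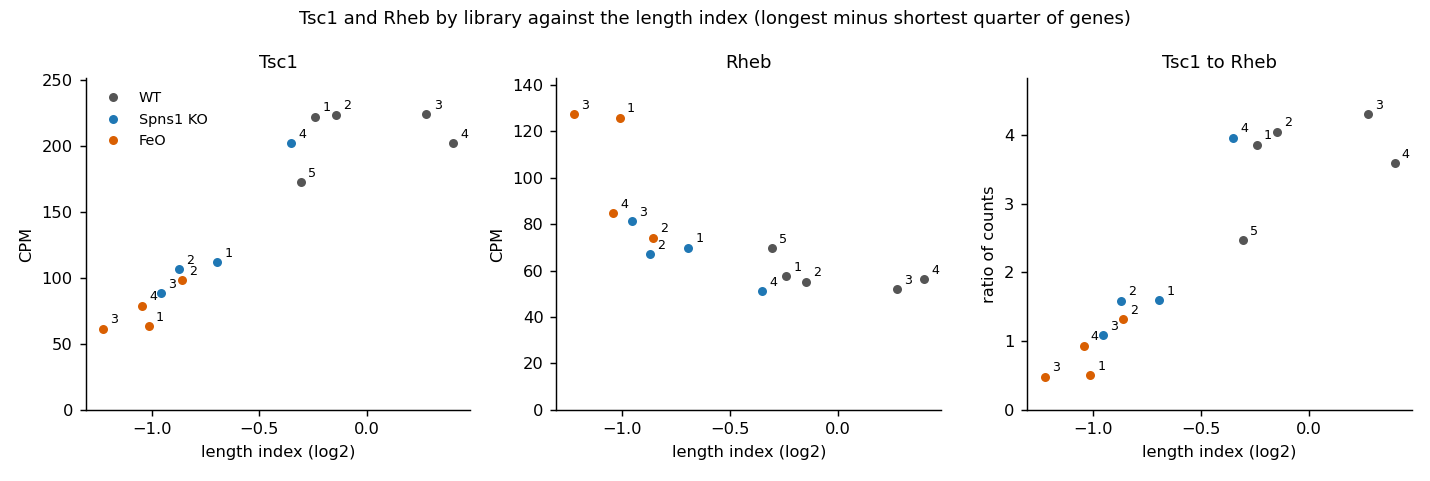
Tsc1 and Rheb in CPM and the ratio of their counts (vertical axes) against each library's length index on the log2 scale (horizontal axes), with the replicate number beside each point. Spns1 KO 4 sits with the WT libraries at an index of -0.35, and FeO libraries, at -0.86 or lower, have the lowest Tsc1 levels and ratios.

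Prkaa1 and Prkaa2 encode the catalytic subunits of AMPK. Compared directly, Spns1 KO and FeO differed past the limits in neither, with a log2 fold change of -0.48 for Prkaa1 (edgeR adjusted p = 0.0833) and 0.65 for Prkaa2 (edgeR adjusted p = 0.140), although Prkaa1 passed with the length and GC offset (-0.61, edgeR adjusted p = 0.0149). Prkaa1 (alpha 1, chr15:5143861-5181899, plus strand) had 65.8, 69.1, 90.5, 109 and 68.8 CPM in WT and 57.3, 45.0, 56.9 and 54.6 CPM in Spns1 KO, where every library lay below every WT and FeO library. It fell by 0.59 on the log2 scale in Spns1 KO (SE 0.17, edgeR adjusted p = 0.0240). The call was lost without Spns1 KO 1, 2 or 3 or without WT 3 or 4 (-0.63 to -0.44, edgeR adjusted p = 0.0524 to 0.0892), and with the length and GC offset the value was -0.32 (edgeR adjusted p = 0.129, with 0.0103 to 0.484 over all alternatives). In FeO Prkaa1 was at 89.5, 64.0, 79.6 and 65.6 CPM, with a log2 fold change of -0.11 (SE 0.17, edgeR adjusted p = 0.611), which turned to 0.28 under the offset (edgeR adjusted p = 0.120) and to 0.038 without WT 4.

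Prkaa2 (alpha 2, chr4:105029874-105109890, minus strand) had the highest CPM of the members in each group and spread widely within WT. WT libraries held 252, 258, 368, 531 and 196 CPM, Spns1 KO libraries 408, 266, 410 and 213 CPM and FeO libraries 226, 176, 256 and 170 CPM. Its log2 fold change in Spns1 KO was 0.015 (SE 0.28, edgeR adjusted p = 0.974). In FeO it was -0.63 (SE 0.28, edgeR adjusted p = 0.0789), and this passed the limits without WT 5 (-0.75, edgeR adjusted p = 0.0397) but had the opposite sign under the length and GC offset (0.096, edgeR adjusted p = 0.772). The FeO value also passed with library totals alone (-0.71, edgeR adjusted p = 0.0469, with 0.0397 to 0.944 over all alternatives).

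Prkab1 and Prkab2 encode the beta subunits. Prkab1 (chr5:116013586-116024508, minus strand) was at 55.8, 57.2, 55.7, 44.6 and 75.1 CPM in WT, 40.1, 47.2, 38.2 and 52.0 CPM in Spns1 KO and 52.0, 62.4, 49.3 and 52.8 CPM in FeO. It was called in neither model, with log2 fold changes of -0.38 in Spns1 KO (SE 0.16, edgeR adjusted p = 0.0910) and -0.092 in FeO (edgeR adjusted p = 0.646), although with the length and GC offset the Spns1 KO value of -0.58 passed (edgeR adjusted p = 0.0114). Prkab2 (chr3:97658193-97673812, plus strand) was at 28.8, 31.3, 40.4, 35.2 and 33.5 CPM in WT and fell to 17.9, 21.8, 14.8 and 27.2 CPM in FeO, below every WT library. Its log2 fold change in FeO was -0.73 (SE 0.19, edgeR adjusted p = 0.00732), called in all 13 fits that left out 1 library, and -0.40 with the offset (edgeR adjusted p = 0.0813, with 0.00156 to 0.137 over all alternatives). In Spns1 KO Prkab2 was at 21.4, 24.6, 19.1 and 31.2 CPM (log2 fold change -0.49, SE 0.19, edgeR adjusted p = 0.0725), and without Spns1 KO 4 it was called (-0.64, edgeR adjusted p = 0.0184).

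Prkag1 and Prkag2 encode gamma subunits, which bind AMP and ATP. Prkag1 (chr15:98812797-98831521, minus strand) rose in FeO, from 40.7, 39.5, 36.6, 35.0 and 42.9 CPM in WT to 78.3, 54.5, 64.1 and 47.4 CPM, with no overlap. Its log2 fold change in FeO was 0.65 (SE 0.16, edgeR adjusted p = 0.00444), called in all 13 fits that left out 1 library, and 0.24 with the length and GC offset (edgeR adjusted p = 0.159, with 0.00115 to 0.241 over all alternatives). In Spns1 KO it was at 49.3, 49.7, 52.6 and 36.5 CPM (log2 fold change 0.27, SE 0.16, edgeR adjusted p = 0.221), with the sign turned under the offset (-0.049). An antisense gene, B130046B21Rik, covers 950 of its exonic bases, so reads there may belong to either.

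Prkag2 (chr5:24862744-25100642, minus strand) was called in no comparison. It was at 59.0, 61.0, 55.7, 60.4 and 47.0 CPM in WT, 60.8, 74.0, 66.4 and 54.7 CPM in Spns1 KO and 53.4, 58.2, 65.1 and 38.5 CPM in FeO. On the log2 scale Prkag2 was 0.18 above WT in Spns1 KO and at -0.074 in FeO (edgeR adjusted p = 0.431 and 0.719), and it overlaps antisense genes over 937 exonic bases. The gamma gene that is not a member, Prkag3, was scarce and uneven, at 1.67 to 28.5 CPM over the 13 libraries, and was called in no comparison.

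**Figure D3:**
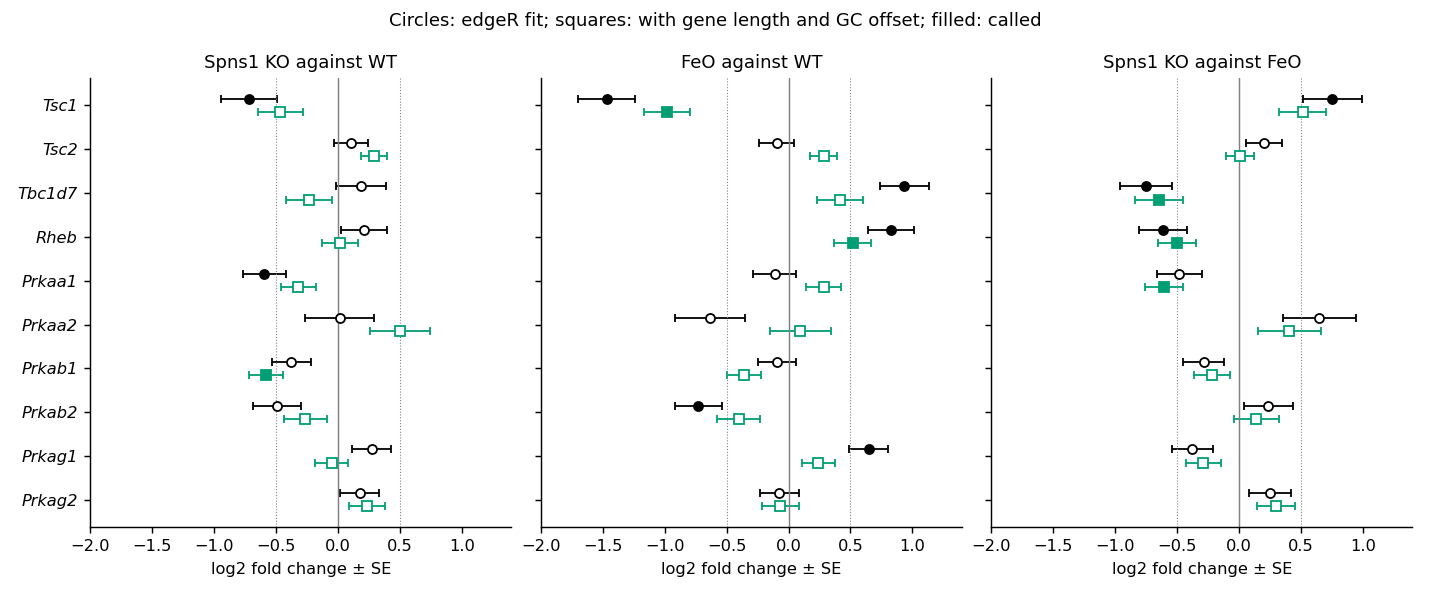
Log2 fold change of each member with its SE (horizontal axes) in the 3 comparisons, from the edgeR fit (circles) and from the fit with the length and GC offset (squares), with filled symbols for called values and dotted lines at 0.5 in either direction. In FeO against WT, Tsc1 (-1.47 and -0.98) and Rheb (0.83 and 0.52) are filled in both fits.

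Read per length, as CPM divided by the length of the longest coding transcript in kilobases, the order of the members differed between WT and FeO. In WT it ran from Prkaa2 (40.3 CPM per kilobase) through Rheb (32.6), Prkab1 (27.6), Tsc1 (27.1), Prkag1 (23.6), Prkaa1 (17.3), Prkag2 (17.0) and Tsc2 (13.1) to Prkab2 (6.76) and Tbc1d7 (4.97). The ranges of neighbours in this order overlapped except between Tsc2 and Prkab2. In FeO Rheb came first at 57.8 CPM per kilobase, and Tsc1, at 9.80, lay level with Tbc1d7 at 9.52. In Spns1 KO Prkaa2 (40.7) and Rheb (37.8) led, and Tsc1 (16.5) came sixth.

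The makeup of AMPK at the mRNA level was read as the share of each isoform among the genes of its subunit type. These shares are descriptions per length and were given no test. Prkaa2 made up 68.9% ± 4.15 of both alpha subunits for the 5 WT libraries, 77.1% ± 5.27 for the 4 Spns1 KO libraries and 61.7% ± 2.54 for the 4 FeO libraries (mean ± SD), and the Spns1 KO range of 69.5% to 80.8% lay above the FeO range of 59.6% to 65.3%, while both overlapped the WT range of 62.5% to 73.9%. Prkab1 made up 80.0% ± 3.86 of the beta subunits for the 5 WT libraries, 81.7% ± 1.17 for the 4 Spns1 KO libraries and 86.5% ± 2.86 for the 4 FeO libraries (mean ± SD), with overlapping ranges. Prkag1 made up 58.1% ± 4.08 of Prkag1 and Prkag2 for the 5 WT libraries, 59.6% ± 2.502 for the 4 Spns1 KO libraries and 69.5% ± 4.35 for the 4 FeO libraries (mean ± SD). The lowest FeO share of Prkag1, 65.4%, lay just above the highest WT share, 64.8%, and the change of Prkag1 itself in FeO was not called with the offset.

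**Figure D4:**
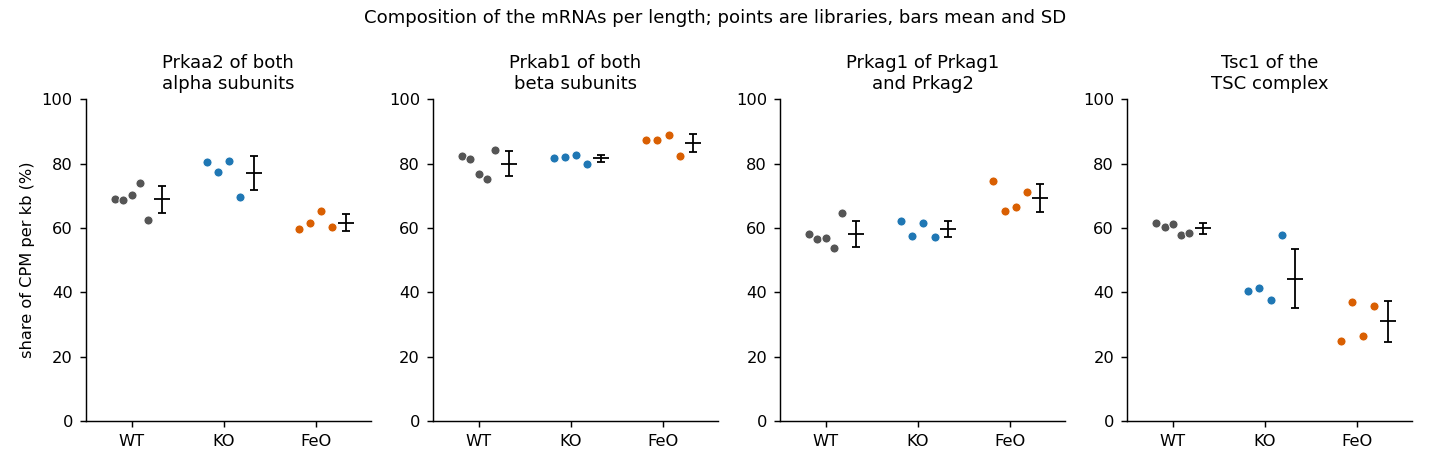
Share in percent of the summed CPM per kilobase (vertical axes, 0 to 100) taken by Prkaa2, Prkab1, Prkag1 and Tsc1 within their subunit type or complex, with a point for each library and bars for mean and SD. Tsc1 falls from 59.9% of the TSC subunits in WT to 30.98% in FeO, and Prkag1 rises from 58.1% to 69.5% of its pair. The shift between long and short genes is not taken out of these shares.

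Compared directly, Spns1 KO and FeO differed in 3 members. Tsc1 was called higher in Spns1 KO than in FeO (log2 fold change 0.75, SE 0.24, edgeR adjusted p = 0.0430), and Tbc1d7 (-0.75, SE 0.21, edgeR adjusted p = 0.0296) and Rheb (-0.61, SE 0.20, edgeR adjusted p = 0.0452) were called lower. Over all genes 6.76% were called higher and 8.10% lower. These calls were fragile. That of Tsc1 was lost without Spns1 KO 1, 2 or 4, WT 1, 2 or 3, or FeO 1, 3 or 4, and was 0.44 without Spns1 KO 4. That of Rheb was lost without Spns1 KO 1, 2 or 4, WT 1, 2 or 3, or FeO 1 or 3, and that of Tbc1d7 without Spns1 KO 1, 2 or 4 or FeO 1 or 3. With the length and GC offset Tbc1d7 (-0.65), Rheb (-0.50) and also Prkaa1 (-0.61) were called lower in Spns1 KO, and Tsc1 (0.51, edgeR adjusted p = 0.0765) was not called.

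The other genes of the pathway were read from 5 lists with 76 distinct genes, all of which were tested. In FeO 11 of the 76 were called higher (14.5%, against 22.4% of all genes) and 25 lower (32.9%, against 19.7%). In Spns1 KO 2 were called higher (2.63%, against 14.0%) and 9 lower (11.8%, against 7.55%). The median log2 fold change over the lists was -0.18 in FeO and -0.21 in Spns1 KO. Their median transcript length was 4425 bases, near the border of the longest class of genes.

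Of the 20 genes that act on the TSC or Rheb, 1 was called higher and 2 lower in Spns1 KO, beside 14.0% and 7.55% of all genes. In FeO 5 of the 20 were called higher and 6 lower, beside 22.4% and 19.7% of all genes. The largest decrease was that of Ddit4 (REDD1, a stress-induced protein that promotes TSC activity), with 127, 103, 54.4, 7.98 and 96.4 CPM in WT and 6.72, 7.56, 7.02 and 16.2 CPM in FeO (log2 fold change -3.05, SE 0.82, edgeR adjusted p = 0.00801). WT 4 overlapped FeO. Ddit4 in Spns1 KO split in the same way, with 10.5, 11.5 and 12.7 CPM in libraries 1 to 3 and 116 CPM in library 4. Sesn1, a sestrin that restrains mTORC1, fell by 1.33 in FeO and by 1.01 in Spns1 KO on the log2 scale (edgeR adjusted p = 0.00193 and 0.0173), the latter not without Spns1 KO 1, 2 or 3. Mapk3 (ERK1, whose pathway phosphorylates Tsc2) rose by 1.33 in FeO and 0.76 in Spns1 KO on the log2 scale (edgeR adjusted p = 0.000384 and 0.00722), the latter lost with the offset (0.39). Rictor, a subunit of mTORC2, fell by 1.30 on the log2 scale in FeO (edgeR adjusted p = 0.00171) and by 0.87 in Spns1 KO (edgeR adjusted p = 0.0286, lost without Spns1 KO 1, 2 or 3 or WT 3 or 4, and with the offset at -0.52), and Mapkap1, another mTORC2 subunit, rose by 0.66 in FeO (edgeR adjusted p = 0.0151).

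Mtor was the mTORC1 core gene called in both models. It was at 522, 541, 508, 511 and 359 CPM in WT, 381, 292, 317 and 346 CPM in Spns1 KO and 195, 250, 272 and 158 CPM in FeO, so that FeO lay below every Spns1 KO library. Its log2 fold change was -1.16 in FeO (SE 0.19, edgeR adjusted p = 0.000587) and -0.61 with the length and GC offset. In Spns1 KO the change of Mtor was -0.55 (edgeR adjusted p = 0.0463), lost without Spns1 KO 1, 2 or 3, WT 1, 2, 3 or 4, or FeO 1 or 2, and with the offset (-0.29). Rptor, the Raptor subunit, fell by 0.58 on the log2 scale in FeO (edgeR adjusted p = 0.0114, under the fold limit without WT 4 or FeO 4, and -0.16 with the offset). Akt1s1 (PRAS40, an inhibitor of mTORC1) rose by 0.94 in FeO (edgeR adjusted p = 0.00134). Of the 7 core genes, 1 (14.3%) was called higher and 2 (28.6%) lower in FeO, beside 22.4% and 19.7% of all genes. In Spns1 KO, 1 of the 7 (14.3%) was called lower, beside 7.55% of all genes.

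Among the 15 mTORC1 substrates and readers, 4 (26.7%) were called higher and 4 (26.7%) lower in FeO, beside 22.4% and 19.7% of all genes. In Spns1 KO, 1 of the 15 was called higher and 3 lower, beside 14.0% and 7.55% of all genes. Rps6, a ribosomal protein whose phosphorylation is a common readout of mTORC1, rose by 1.31 in FeO and 1.32 in Spns1 KO on the log2 scale (edgeR adjusted p = 0.000684 and 0.00119). At 878 bases it belongs to the shortest class of genes, and the offset left 0.76 and 0.84, both still called. Whether reads of its processed pseudogenes entered its counts was not tested. Lpin1, a phosphatidate phosphatase, changed by -1.37 in FeO and -1.22 in Spns1 KO (edgeR adjusted p = 0.00323 and 0.0122). Ulk1, the kinase that starts autophagy and a substrate of both mTORC1 and AMPK, fell by 1.08 in FeO (edgeR adjusted p = 0.00119) and by 0.67 in Spns1 KO (edgeR adjusted p = 0.0307, lost without Spns1 KO 1, 2 or 3 or any 1 WT library). Maf1, a repressor of RNA polymerase III, rose by 0.93 in FeO (edgeR adjusted p = 0.000788), and each FeO library, at 59.0 to 90.9 CPM, exceeded the WT maximum of 48.6 CPM. With the offset Maf1 rose by 0.55 in FeO and was still called, as were the decreases of Lpin1 and Ulk1 in both models.

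Of 16 AMPK substrates, 8 were called lower and none higher in FeO, and 3 lower and none higher in Spns1 KO, with medians of -0.47 and -0.47 on the log2 scale and a median length of 5007 bases. Over all genes 22.4% were called higher and 19.7% lower in FeO, and 14.0% and 7.55% in Spns1 KO. The median of the longest length class was -0.49 in FeO and -0.33 in Spns1 KO. Foxo3, a transcription factor, fell by 1.45 in FeO (edgeR adjusted p = 0.00817). Pfkfb3, a regulator of glycolysis, fell by 1.102 (edgeR adjusted p = 0.0347), a call lost without WT 2, 3 or 5 or FeO 1, 2 or 3 and with the offset (-0.87). In Spns1 KO the called genes with the largest decreases were Acacb (acetyl-CoA carboxylase 2, -0.98, edgeR adjusted p = 0.0169, and -0.85 and not called without Spns1 KO 2) and Ppargc1a (PGC-1 alpha, a driver of mitochondrial biogenesis, -0.87, edgeR adjusted p = 0.00615), and Ppargc1a was called lower in FeO too (-0.93, edgeR adjusted p = 0.00195).

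Of the 20 AMPK kinases and further AMPK genes, 1 (5.00%) was called higher and 7 (35.0%) lower in FeO. In Spns1 KO none was called higher and 1 (5.00%) lower. Over all genes these shares were 22.4% and 19.7% in FeO and 14.0% and 7.55% in Spns1 KO. Cab39l, a partner of the AMPK kinase LKB1, rose by 0.97 on the log2 scale in FeO (edgeR adjusted p = 0.00543), with 96.1 to 199 CPM against 56.5 to 99.7 CPM in WT. Fnip2, a partner of folliculin that binds AMPK, fell by 1.82 (edgeR adjusted p = 0.00108), and the AMPK-related kinase Sik3 by 1.20 (edgeR adjusted p = 0.000492). Sik2, another such kinase, fell by 0.95 in FeO (edgeR adjusted p = 0.000719) and by 0.81 in Spns1 KO (edgeR adjusted p = 0.00339). The AMPK kinase Stk11 (LKB1) itself was not called, with log2 fold changes of 0.32 in Spns1 KO and 0.42 in FeO.

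**Figure D5:**
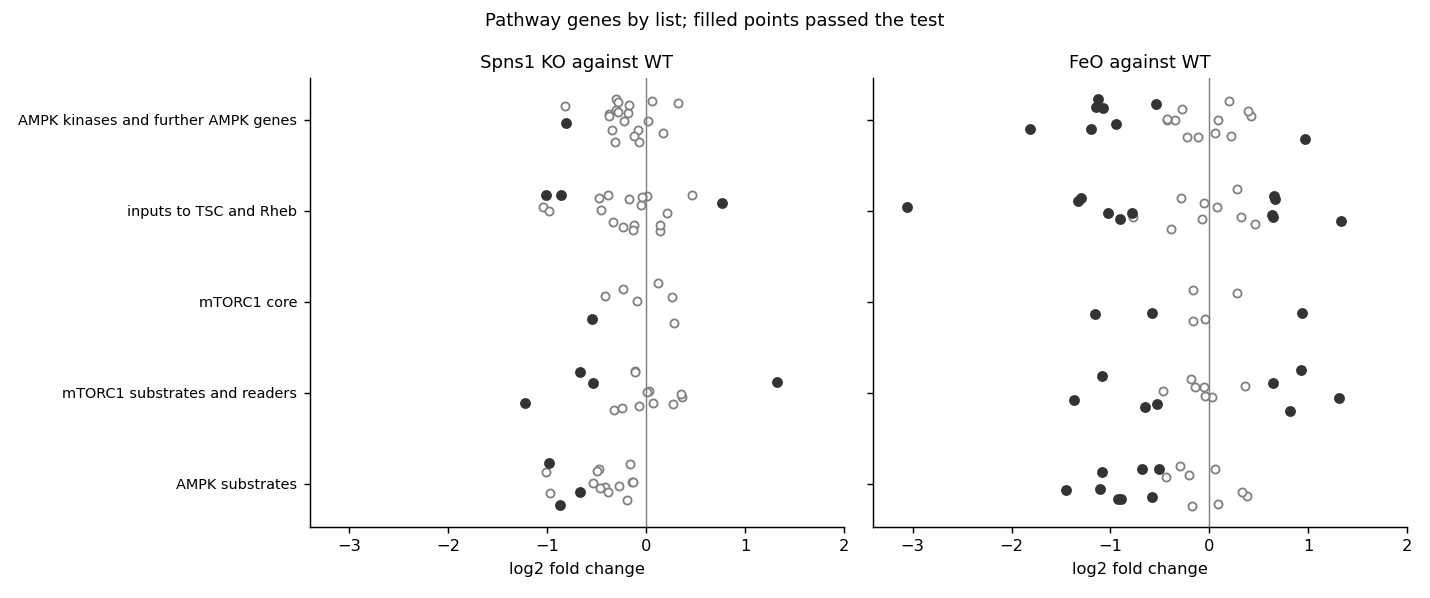
Log2 fold change (horizontal axes) of every gene of the 5 pathway lists (rows) in Spns1 KO and in FeO against WT, with filled points for called genes. In FeO 25 of the 76 distinct genes are called lower and 11 higher, with Ddit4 farthest to the left at -3.05.

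Between Spns1 KO and FeO, 5 of the 76 genes were called higher in Spns1 KO and 6 lower, beside 6.76% and 8.10% of all genes. The calls for Cab39l (-1.15), Maf1 (-0.93) and Sik3 (0.82) held in all 13 fits that left out 1 library (edgeR adjusted p = 0.0115, 0.00576 and 0.0126). Those for Ddit4l (-0.99), Eif4ebp1 (-0.89), Flcn (0.77), Akt1s1 (-0.68), Pdpk1 (0.63), Mtor (0.61), Tbc1d4 (-0.56) and Larp1 (0.54) were each lost in at least 1 such fit, and the call of each was lost without FeO 1. Pdpk1 (0.44), Mtor (0.32) and Larp1 (0.33) were also no longer called with the offset.

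The genes whose profiles lay nearest to those of Tsc1 and Rheb were sought among 12207 tested genes averaging 100 counts or more. Likeness was the mean absolute difference in log2 CPM over the 13 libraries, after the WT mean of each gene was removed. Nearest to Tsc1 were Atad2 (0.099), Nktr (0.110) and Mrtfb (0.112), with log2 fold changes in FeO of -1.53, -1.36 and -1.35 and transcripts of 5684, 7022 and 8295 bases. Nearest to Rheb were the proteasome subunit gene Psmd14 (0.047), the chaperonin subunit gene Cct4 (0.062) and Tsg101 (0.071), with log2 fold changes in FeO of 0.81, 0.81 and 0.90 and transcripts of 1541, 2484 and 1949 bases. The neighbours of Tsc1 were thus long and those of Rheb short or of middle length.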

How the data were processed

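RNA from kidneys of 13 mice was thiol-tagged in vivo, biotinylated, captured and poly-A selected, and sequenced in paired-end reads. The authors deposited estimated counts, whole numbers for each gene symbol and library, without normalization. The submitters' processing notes list kallisto 0.44.0, bcl2fastq 2.19, DESeq2 and the build GRCm38, whereas the methods describe STAR and HTSeq, so the counting step is uncertain, and the strand setting is not given in the sources used here. Groups came from the sample labels, which do not tie replicate numbers to litters or days. The methods describe the WT kidneys as coming from littermates. Counts were scaled by TMM factors, filtered with filterByExpr and tested in 1 quasi-likelihood fit of the 3 groups in edgeR 4.0.16 (R 4.3.3). CPM use the TMM-scaled totals, and log2 CPM a prior count of 2. DESeq2 1.42.0 and limma 3.58.1 served as alternatives, as did other scalings and filters, glmTreat at 0.5, leaving out each library, and an offset from splines (5 degrees of freedom each) of transcript length and GC content. The scripts were tested on simulated data. Lengths came from GENCODE M21 and matched 34222 of 35013 symbols, and upstream sequences from RefSeq. No 2 libraries of a group were alike within sampling noise. Deviations from group means correlated between -0.30 and 0.26 in pairs with the same replicate number, so the numbers were not treated as pairs. The text names all members, the targeted gene, the 3 genes nearest in profile to Tsc1 and Rheb, and in each pathway list and comparison at most the 2 largest called increases and 2 largest called decreases; Prkag3 and Stk11 were added after their values were seen. The members and lists were chosen with earlier results of these data known. Depth bounds counting error only, and p-values measure the spread between these libraries.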

Additional observations from a re-analysis of the deposited data

Results flagged for a closer look

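In 45 sets of library values (a member's CPM, a subunit share or a count ratio in 1 group), 1 library lay farther from the others than the limit for a single outlying sample. This was the count ratio of Tsc1 to Tsc2 in Spns1 KO 4, at 2.29, whose gap to the next library took 0.866 of the range of the group, beyond Dixon's limit for 4 samples. Chance alone passes this limit in about 1 of 20 sets. The same library had the highest Tsc1 level of its group, 202 CPM, the length index nearest to WT, -0.35, and 59.0 CPM of Spns1, and the part of these in the ratio was not tested.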

How the results depend on the processing

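Tsc1 stayed called lower in FeO in all 24 alternatives. glmTreat at a fold limit of 0.5 left in FeO 1 member called higher, 1 lower, 20 pathway genes and 3119 genes, in Spns1 KO 0 members lower, 1 pathway gene and 929 genes, and between Spns1 KO and FeO 0 members higher, 0 lower, 0 pathway genes and 343 genes. The length and GC offset left in FeO 1 member called higher and 1 lower, in Spns1 KO 1 lower (Prkab1 in place of Tsc1 and Prkaa1), and 0 higher in Spns1 KO against FeO. Values with the sign turned under it were Tsc2 (0.28), Prkaa1 (0.28) and Prkaa2 (0.096) in FeO and Tbc1d7 (-0.23) and Prkag1 (-0.049) in Spns1 KO. The labels do not say whether the replicate numbers pair the samples, and the main fit did not treat them as pairs. The replicate block left 0 members higher, 1 lower and 7 pathway genes in Spns1 KO against FeO turned Prkaa2 in Spns1 KO (-0.13) and Prkab1 in FeO (0.015), and called Prkaa2 lower in FeO (-0.77). The replicate block with the length and GC offset left 0 members lower, 4 pathway genes and 1449 genes in Spns1 KO, 1 member higher, 1 lower and 4474 genes in FeO, and 0 higher and 1 lower between them, and turned Tsc2 (0.25) and Prkaa1 (0.27) in FeO and Tbc1d7 (-0.29) and Prkag1 (-0.055) in Spns1 KO. Library totals alone gave 20 pathway genes in Spns1 KO and 0 members higher against FeO, turned Tsc2 (-0.023) and Prkaa2 (-0.12) in Spns1 KO, and called Prkab2 lower there (-0.63). Upper-quartile factors turned Prkaa2 (-0.0029). Keeping all genes with a count above 0 left 0 members lower in Spns1 KO, and 1 lower and 7 pathway genes against FeO. Fitting only the 2 groups compared left 0 members higher, 0 lower, 5 pathway genes and 1040 genes in Spns1 KO against FeO, and limma-voom 1 lower. The causes were not tested.

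Leaving out 1 library gave 0 to 3 members lower, 6 to 22 pathway genes and 2035 to 5680 genes in Spns1 KO, where the larger counts came without Spns1 KO 4. Against FeO it gave 0 to 1 members higher, 0 to 2 lower, 3 to 15 pathway genes and 1181 to 3087 genes. Values turned without 1 library were Tsc2 in FeO (0.0079 without FeO 3, range -0.16 to 0.0079), Prkaa1 in FeO (0.038 without WT 4, range -0.19 to 0.038), Prkab1 in FeO (0.040 without WT 5, range -0.16 to 0.040), Prkag2 in FeO (0.084 without FeO 4, range -0.18 to 0.084) and Prkaa2 in Spns1 KO (-0.11 or -0.12 without Spns1 KO 1 or 3 and -0.062, -0.055 or -0.10 without WT 1, 2 or 5, range -0.12 to 0.29). Every turned value was of a member not called.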
